A study of Homo sapiens with 6 samples.

Results

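Keratins are the intermediate filament proteins of epithelial cells, and 10 of their genes (KRT5, KRT6A, KRT7, KRT8, KRT14, KRT17, KRT18, KRT19, KRT80 and KRT81) were followed here in 6 RNA libraries of cells labelled HepG2, a line from a human liver tumour. They were taken by gene name from the 62753 rows of the deposited expression table, and each name matched 1 row. The WT group holds 3 libraries of unedited cells, and the sgPARP1 group holds 3 libraries of the same line after PARP1, the gene of the nuclear enzyme poly(ADP-ribose) polymerase 1, had been targeted with CRISPR-Cas9; its genotype label is PARP1 KO. The labels name no drug or other treatment, and they give neither the guide nor whether the edited cells are 1 clone or a pool. Separate cultures are not named for the 3 libraries of a group either, and p-values thus refer to the spread between libraries, which could be technical only. Values are FPKM, reads scaled to the size of the library and to the length of the gene. In these bulk libraries, fewer cells expressing a gene and less RNA per cell cannot be told apart.

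Each library held 14842498 to 17305129 reads assigned to genes, with a read in 21437 to 21903 genes. PARP1 itself stood at 31.8, 31.5 and 31.5 FPKM in the WT libraries and at 4.31, 4.23 and 4.39 FPKM in the sgPARP1 libraries, and its mean fell by 86.4%. The labelled cell type was checked against 14 hepatocyte markers. Of these, 8 were listed at 0 in every library, ALB, AFP, APOB and TTR among them, and none reached the mean of 0.5 FPKM needed for testing. The highest mean was that of ASGR1 at 0.0211 FPKM. A ribosomal protein gene that every cell uses, RPS9, was also listed at 0 in all 6 libraries, so a value of 0 is given below only as a listing. Summed hepatocyte markers came to 0.0156 to 0.0945 FPKM in WT and 0.0341 to 0.133 FPKM in sgPARP1, so the measured profile goes against the label in both groups. Markers of endothelium (sums of 0.225 to 0.456 FPKM) and of immune cells (0.118 to 0.642 FPKM) had no tested member either.

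Keratin filaments are obligate heteropolymers: an acidic type I chain pairs with a basic type II chain, and a chain without a partner is degraded. The type I genes lie together on chromosome 17 and the type II genes on chromosome 12, with the type I gene KRT18 set among the type II genes beside its partner KRT8. KRT8 and KRT18 are the pair of simple, single-layered epithelia and the main keratins of hepatocytes, KRT7 and KRT19 are added in ducts such as those of the bile, KRT5 and KRT14 are the pair of the basal layer of stratified epithelia, and KRT6A and KRT17 are known as keratins of wounded or activated epidermis. KRT80 is a type II keratin, and KRT81 is a type II keratin of the hair shaft.

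The members are close relatives, and how close decides how well short reads can be assigned to each, so stretches of their coding sequence are shown first. They come from the GENCODE release 29 transcripts (hg38) and are written 5′ to 3′ along the transcript. Among the type I genes, KRT17 shares a run of 59 coding bases with KRT14, shown with the aligned stretches of the others and with capitals where a base differs from KRT17. All lie in exon 4: KRT17 at chr17:41621609-41621667, KRT14 at chr17:41583776-41583834 and KRT19 at chr17:41524395-41524453, each on the minus strand, and KRT18 at chr12:52951571-52951629 on the plus strand.
KRT17: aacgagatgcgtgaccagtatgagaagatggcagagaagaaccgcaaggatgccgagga
KRT14: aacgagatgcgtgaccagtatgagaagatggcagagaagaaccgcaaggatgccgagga
KRT19: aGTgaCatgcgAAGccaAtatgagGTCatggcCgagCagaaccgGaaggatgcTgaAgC
KRT18: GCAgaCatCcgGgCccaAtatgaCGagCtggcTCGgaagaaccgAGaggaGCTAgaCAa
KRT19 differed from KRT17 at 16 of the 59 bases and KRT18 at 22. KRT17 and KRT14, alike over the whole stretch, had very different levels in these cells, as given below.

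In WT the keratins formed a steep series, and the same 4 genes led it in every library. KRT7, KRT8, KRT18 and KRT17 together held 94.5% ± 0.176 (SD, n = 3) of the summed FPKM of the members. KRT7 (ENSG00000135480, chromosome 12, plus strand, 52232520 to 52252186, hg38) had a WT mean of 279 ± 11.6 FPKM (SD, n = 3 here and below) and ranked 94 among all rows. KRT8 (ENSG00000170421, chromosome 12, minus strand, 52897187 to 52949954) followed with 268 ± 14.3 FPKM, and KRT18 (ENSG00000111057, chromosome 12, plus strand, 52948871 to 52952906) with 255 ± 16.2 FPKM. The WT ranges of KRT7 and KRT8 overlapped, as did those of KRT8 and KRT18. Compared within each library, KRT7 was above KRT8 in 6 of 6 libraries and KRT8 above KRT18 in 4 of 6. Within the WT libraries KRT7 over KRT8 was 1.03 to 1.05 and KRT8 over KRT18 1.04 to 1.06, so these small differences were kept in each. KRT17 (ENSG00000128422, chromosome 17, minus strand, 41619442 to 41624842) stood lower at 200.5 ± 13.5 FPKM, with no overlap with KRT18. The next steps were large. KRT80 (ENSG00000167767, chromosome 12, minus strand, 52168996 to 52192014) reached 53.2 ± 2.89 FPKM, KRT19 (ENSG00000171345, chromosome 17, minus strand, 41523617 to 41528308) 3.14 ± 0.481 FPKM and KRT81 (ENSG00000205426, chromosome 12, minus strand, 52285913 to 52291534) 2.26 ± 0.220 FPKM, each below the range of the one before. KRT8 and KRT18 were thus abundant, as in simple epithelium, and KRT19, which often accompanies KRT7 in ducts, was far below KRT7.

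**Figure D1:**
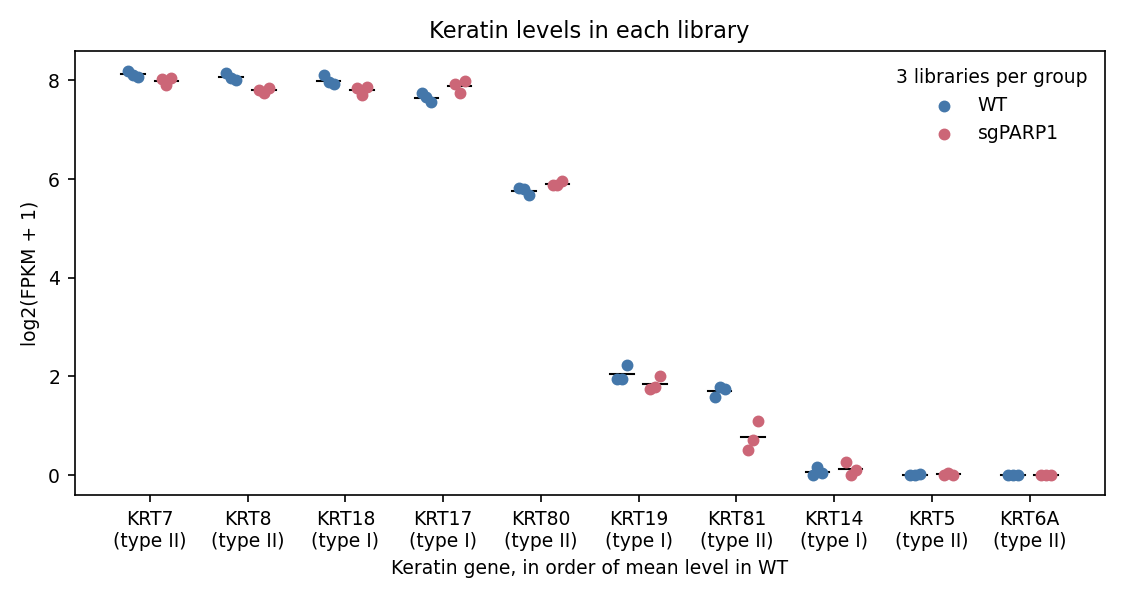
Level of each keratin gene in the 6 libraries as log2(FPKM + 1), in order of the WT mean, with 1 point per library and a line for each group mean on that scale. KRT7, KRT8, KRT18 and KRT17 lie between 187 and 291 FPKM in every library, KRT80 near 50 to 61 FPKM, KRT19 and KRT81 below 4 FPKM, and KRT14, KRT5 and KRT6A at or near 0.

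The 3 keratins of stratified and activated epidermis other than KRT17 were at or near 0. KRT14 (ENSG00000186847, chromosome 17, minus strand, 41582279 to 41586895) had 0, 5 and 1 reads in the WT libraries and 7, 0 and 3 reads in the sgPARP1 libraries. KRT5 (ENSG00000186081, chromosome 12, minus strand, 52514575 to 52520530) had 0, 0 and 1 reads in WT and 0, 2 and 0 reads in sgPARP1. KRT6A (ENSG00000205420, chromosome 12, minus strand, 52487176 to 52493257) was listed at 0 in all 6 libraries, where counting error alone allows up to 3 reads each. These 3 genes did not pass the filter of a mean of 0.5 FPKM over the 6 libraries, so 7 of the 10 members were tested. KRT17 was thus high in libraries where KRT6A was listed at 0 and KRT14 had at most 7 reads. Of the stratified differentiation genes, 15 of 20 listed rows were at 0 and 2 were tested, CNFN (cornifelin) and PI3 (elafin). CNFN was at 5.83 FPKM in WT and 5.03 FPKM in sgPARP1, and PI3 at 0.637 and 0.707 FPKM. Limma and voom each called 0 of these 2 genes, 0 had an unadjusted p under 0.05, and both log2 fold changes turned sign when single libraries were left out.

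The order of the upper 4 depends on the length used. The deposited table divides KRT8 by 6881 bases, whereas its main GENCODE transcript has 2126 bases; for KRT7 the lengths are 3999 and 1754 bases, for KRT18 3069 and 1562 bases, and for KRT17 2996 and 1651 bases. Recalculated per kilobase of the main transcript, an alternative chosen after the values were seen, WT levels were 868 ± 46.3 for KRT8, 635 ± 26.5 for KRT7, 501 ± 31.9 for KRT18 and 364 ± 24.6 for KRT17, with no overlap between neighbours. KRT8 then came first in place of KRT7. KRT80 at 60.2, KRT19 at 5.28 and KRT81 at 2.26 kept their places. Differences of 1 gene between the groups do not depend on its length, apart from the pseudocount of 1 added before the logarithm.

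Between the groups, the tested keratins moved in both directions. The type II genes KRT8 and KRT81 were lower in sgPARP1 by limma's moderated test on log2(FPKM + 1), with p adjusted by the Benjamini-Hochberg method over all 13167 tested genes. No keratin passed that test as higher, although KRT17 and KRT80 were higher in every sgPARP1 library than in any WT library. Of all tested genes 7.96% were called, 4.44% as lower and 3.52% as higher. Of the 7 tested members, 2 were called lower and 0 higher, while at an unadjusted p under 0.05 there were 4 lower and 2 higher, beside 12.3% and 12.1% of all tested genes. Voom, the form of limma for counts, called 3 lower and 1 higher on reads recovered from the FPKM, beside 6.95% and 4.91% of all tested genes. The median log2 fold change was −0.19 over the 7 members and 0.00292 over all tested genes. The groups did not overlap in 6 of the 7 members, 4 of them lower and 2 higher, beside 31.1% of all tested genes, of which 14.9% were lower and 16.1% higher. For each of these 6 the exact two-sided permutation test over libraries gave p = 0.1, the smallest that 3 against 3 libraries allow.

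**Figure D2:**
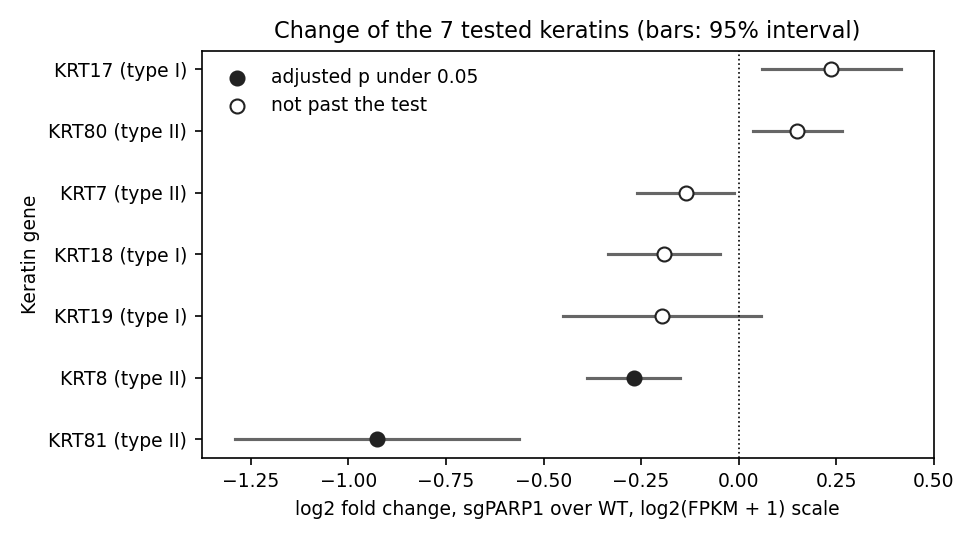
Log2 fold change (sgPARP1 over WT, on the log2(FPKM + 1) scale) of the 7 tested keratin genes, with points for the estimate and bars for its 95% confidence interval from limma. KRT81 at −0.93 and KRT8 at −0.27 passed the test, KRT18, KRT7 and KRT19 lie below 0 and KRT80 and KRT17 above 0 without passing it.

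KRT8 stood at 284, 263 and 257 FPKM in WT and at 224, 213 and 230 FPKM in sgPARP1. Every sgPARP1 library was below every WT library, and the mean fell by 17.1%, to 222 ± 8.87 FPKM. The log2 fold change was −0.27 (SE 0.0499, 95% interval −0.39 to −0.15, limma adjusted p = 0.0243). It rested on 22541 to 33750 reads per library. The call was lost when WT 1, WT 2, sgPARP1 1 or sgPARP1 2 was left out, with adjusted p of 0.0535, 0.0789, 0.0849 and 0.0626, and when all genes above 0 in a library were tested (adjusted p = 0.0803), while the log2 fold change stayed between −0.30 and −0.23.

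KRT18, the partner of KRT8, stood at 273, 248 and 243 FPKM in WT and at 229, 208 and 232 FPKM in sgPARP1. The groups did not overlap, with means of 255 and 223 ± 12.9 FPKM, a difference of −12.5%. Its log2 fold change of −0.19 (SE 0.0607, 95% interval −0.34 to −0.05) did not pass over all genes (limma adjusted p = 0.111). With voom on recovered reads it did, at −0.20 and an adjusted p of 0.0238. The pair thus lay lower in sgPARP1 in both members, and only KRT8 passed the main test.

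The keratins added in ducts gave smaller or less certain differences. KRT7 stood at 291, 276 and 268 FPKM in WT and at 259, 237 and 265 FPKM in sgPARP1, without overlap but with sgPARP1 3 close to WT 3. The sgPARP1 mean of 254 ± 14.3 FPKM differed from WT by −8.94%, a log2 fold change of −0.14 (SE 0.0523, 95% interval −0.26 to −0.01, limma adjusted p = 0.174). KRT19 stood at 2.85, 2.87 and 3.70 FPKM in WT and at 2.35, 2.47 and 3.01 FPKM in sgPARP1. Its groups overlapped, through sgPARP1 3, and the log2 fold change of −0.20 (SE 0.107, 95% interval −0.45 to 0.06) had a limma adjusted p of 0.318 and an exact permutation p of 0.3. With 86 to 130 reads per library, KRT19 was measured less precisely than the leading genes.

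KRT17, the type I keratin of activated epidermis, lay on the other side. It stood at 214, 200.4 and 187 FPKM in WT and at 242, 215 and 254 FPKM in sgPARP1. The lowest sgPARP1 library was just above the highest WT library, and the sgPARP1 mean of 237 ± 20.1 FPKM was 18.1% above WT. The log2 fold change of 0.24 (SE 0.0747, 95% interval 0.06 to 0.42) did not pass over all genes (limma adjusted p = 0.109), and it did with voom on recovered reads, at 0.23 and an adjusted p of 0.0271. KRT80 stood at 55.3, 54.4 and 49.9 FPKM in WT and at 58.3, 58.2 and 60.9 FPKM in sgPARP1. Its groups did not overlap, with sgPARP1 at 59.1 ± 1.51 FPKM, 11.1% above WT, and a log2 fold change of 0.15 (SE 0.0480, 95% interval 0.04 to 0.26, limma adjusted p = 0.112).

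The 5 most abundant keratins, KRT7, KRT8, KRT18, KRT17 and KRT80, had the same order of libraries within each group: WT 1 was highest and WT 3 lowest, and sgPARP1 3 was highest and sgPARP1 2 lowest. The spread within a group was thus shared between genes that lay lower and genes that lay higher in sgPARP1. It was not particular to keratins, since the FPKM summed over all genes had the same order of libraries. That sum was 270174, 265918 and 263084 in WT 1, 2 and 3, and 266784, 263468 and 268123 in sgPARP1 1, 2 and 3. The coefficient of variation in WT was 6.75% for KRT17 and 5.33% for KRT8.

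KRT81, the hair keratin, had the largest difference among the members. It stood at 2.01, 2.43 and 2.34 FPKM in WT, from 67, 81 and 68 reads, and at 0.431, 0.639 and 1.14 FPKM in sgPARP1, from 13, 19 and 38 reads. All sgPARP1 libraries were below all WT libraries, and sgPARP1 3 was the highest of its group, whose coefficient of variation was 49.7%. The mean fell by 67.4%, to 0.738 ± 0.366 FPKM, and the log2 fold change was −0.93 (SE 0.153, 95% interval −1.29 to −0.56, limma adjusted p = 0.0162). At this low level the pseudocount sets the size: the log2 fold change was −1.58 with a pseudocount of 0.1, −1.39 from TPM, the FPKM rescaled to one sum in every library, and −1.68 with voom on recovered reads. The call was lost without WT 2, WT 3 or sgPARP1 2 (adjusted p of 0.0695, 0.0610 and 0.0537) and with no filter (0.0625).

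**Figure D3:**
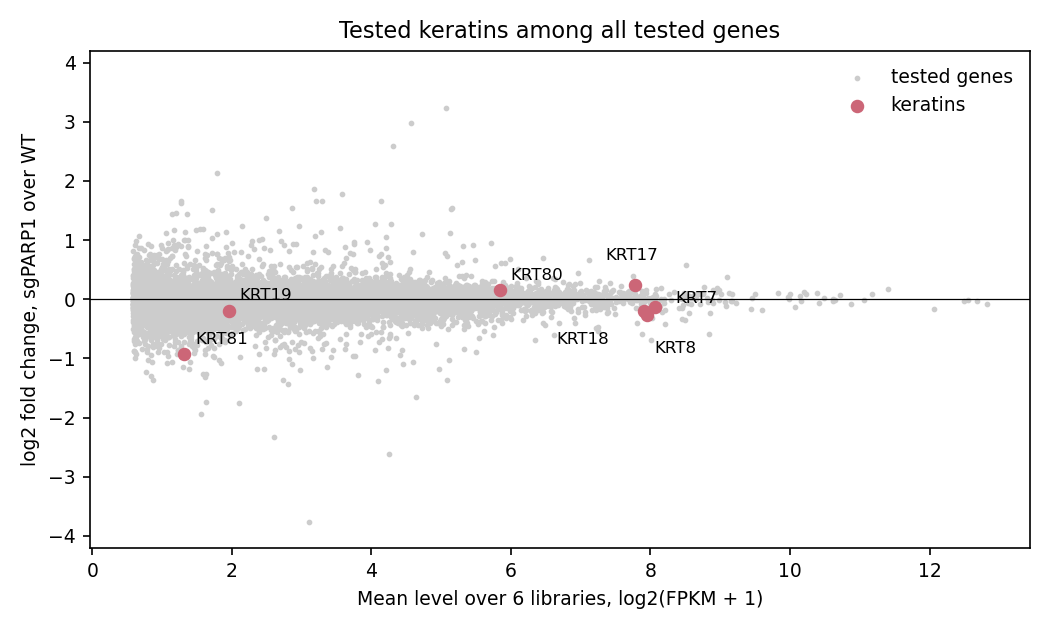
Log2 fold change (sgPARP1 over WT, log2(FPKM + 1) scale) against the mean level over the 6 libraries as log2(FPKM + 1), with all 13167 tested genes as small grey points and the 7 tested keratins marked. KRT7, KRT8, KRT18 and KRT17 lie towards the right, where few genes are more abundant, with changes from −0.27 to 0.24, and KRT81 lies at the left at −0.93.

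KRT81 cannot be read apart from KRT86. The KRT81 gene lies whole, over 5622 bases, inside the annotated span of KRT86, another type II hair keratin, which is on the opposite strand (chromosome 12, plus strand, 52249300 to 52309163). The span of KRT86 also overlaps that of KRT7 by 2887 bases, on the same strand. Whether reads of KRT7 were counted for KRT86 was not tested. Whether the counting used strand is not given in the sources used here. Set side by side without gaps, the coding sequences of KRT81 and KRT86 were identical at 1320 of 1458 bases (90.5%), with a longest identical run of 605 bases. An inserted or missing stretch would put later bases out of register, so this share may be too low. Both kinds of stretch are shown. First come 60 bases from the identical run, at chr12:52291346-52291405 in KRT81 (minus strand, exon 1) and chr12:52301977-52302036 in KRT86 (plus strand, exon 3). Then come the 60 bases that differ most without gaps, at chr12:52286341-52286400 in KRT81 (minus strand, exon 9) and chr12:52308497-52308556 in KRT86 (plus strand, exon 11). Capitals mark the bases that differ in this register.
KRT81, identical stretch: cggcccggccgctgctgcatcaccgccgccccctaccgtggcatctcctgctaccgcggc
KRT86, identical stretch: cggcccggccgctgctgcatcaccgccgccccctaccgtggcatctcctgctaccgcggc
KRT81, most different stretch: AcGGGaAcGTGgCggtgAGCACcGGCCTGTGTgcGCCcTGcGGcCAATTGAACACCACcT
KRT86, most different stretch: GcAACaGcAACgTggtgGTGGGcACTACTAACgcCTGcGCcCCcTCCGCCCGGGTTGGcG
Reads that lie wholly in the identical run cannot be told apart. The last pair differed at 45 of 60 bases in this register, but parts of it match when shifted against each other by a few bases. How well reads from there can be told apart was thus not measured. KRT86 stood at 2.70, 3.01 and 2.77 FPKM in WT and at 2.53, 1.55 and 2.51 FPKM in sgPARP1, all below WT, with a log2 fold change of −0.27 (SE 0.133, limma adjusted p = 0.265). The summed FPKM of the pair was 4.71, 5.44 and 5.11 in WT and 2.96, 2.19 and 3.66 in sgPARP1, without overlap. Whether shared reads were dropped, split or counted for both genes is not given, so the sum may still depend on them.

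The balance between the 2 keratin types differed between the groups. The summed FPKM of the 6 type II members was 602 ± 28.1 in WT and 536 ± 24.4 in sgPARP1, without overlap, whereas the summed FPKM of the 4 type I members was 459 ± 28.8 and 462 ± 33.1, with overlap. The ratio of type II to type I was 1.29, 1.32 and 1.33 in WT and 1.15, 1.197 and 1.14 in sgPARP1. KRT8 over KRT18 was 1.04, 1.06 and 1.06 in WT and 0.980, 1.02 and 0.991 in sgPARP1. Both ratios were lower in every sgPARP1 library than in any WT library. Within a type, KRT7 over KRT8 was 1.03, 1.05 and 1.05 in WT and 1.16, 1.12 and 1.15 in sgPARP1, and KRT17 over KRT18 was 0.783, 0.808 and 0.769 in WT and 1.06, 1.03 and 1.09 in sgPARP1. KRT17 was thus below KRT18 in every WT library and above it in every sgPARP1 library. Its share of the summed FPKM of the 4 type I members was 43.7% ± 0.660 in WT and 51.2% ± 0.725 in sgPARP1. KRT10, a type I keratin outside the members, is left out of that sum. These ratios are descriptions without a test, since the members were chosen with earlier results known. With main transcript lengths the 4 ratios were 1.80 and 1.57 for type II over type I, 1.73 and 1.64 for KRT8 over KRT18, 0.732 and 0.804 for KRT7 over KRT8, and 0.727 and 0.979 for KRT17 over KRT18, in WT and sgPARP1. The direction of each difference was kept, and on that scale the mean of KRT17 over KRT18 did not pass 1 in sgPARP1.

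**Figure D4:**
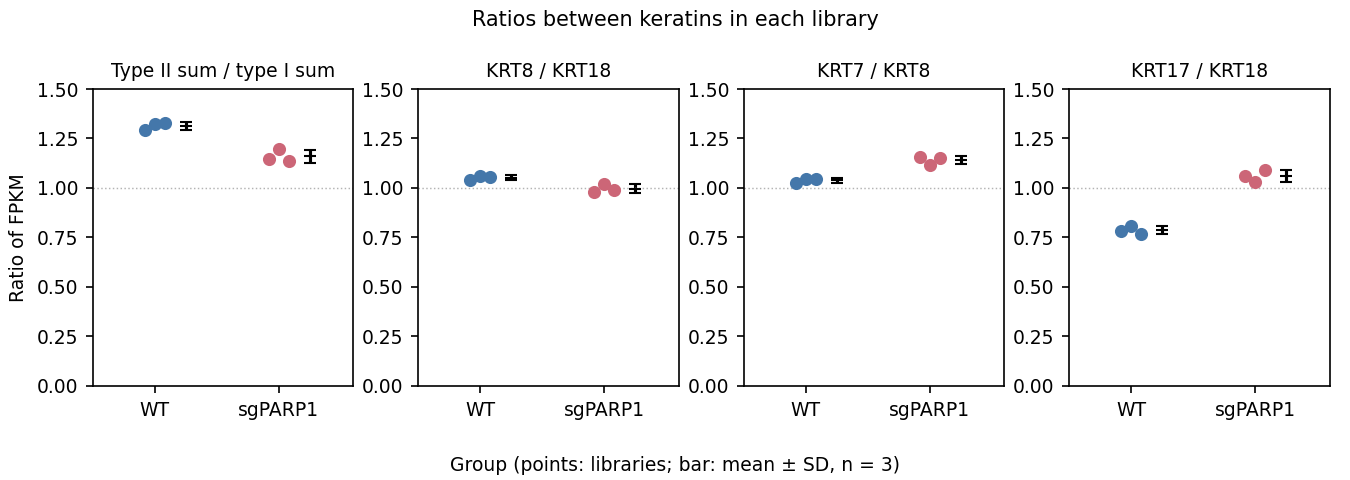
Ratios of summed or single keratin FPKM in each library, with 1 point per library and bars for the mean ± SD (n = 3) of each group. Type II over type I and KRT8 over KRT18 are lower, and KRT7 over KRT8 and KRT17 over KRT18 higher, in all 3 sgPARP1 libraries than in all 3 WT libraries.

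How far other genes could share reads with the keratins was measured by cutting each main transcript into all its 50-base windows and looking for each window in the transcripts of other genes, on either strand. The share was 47.6% for KRT18, 44.6% for KRT81, 39.1% for KRT6A, 36.9% for KRT8, 23.8% for KRT14, 16.0% for KRT17, 10.8% for KRT7, 3.99% for KRT5, 1.79% for KRT19 and 0.420% for KRT80. With windows of 100 bases it fell to 7.75% for KRT8, 16.6% for KRT18 and 30.3% for KRT81. KRT80, KRT19 and KRT5 thus have nearly private sequence, and KRT18 and KRT81 the least among the tested members. For KRT18 the gene sharing most windows was KRT8, with 21.5% of 50-base windows, and all 16.6% of 100-base windows were shared with it; the annotated spans of these neighbours overlap by 1084 bases on opposite strands. For KRT81 it was KRT86, with 38.4% of 50-base and 29.4% of 100-base windows.

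**Figure D5:**
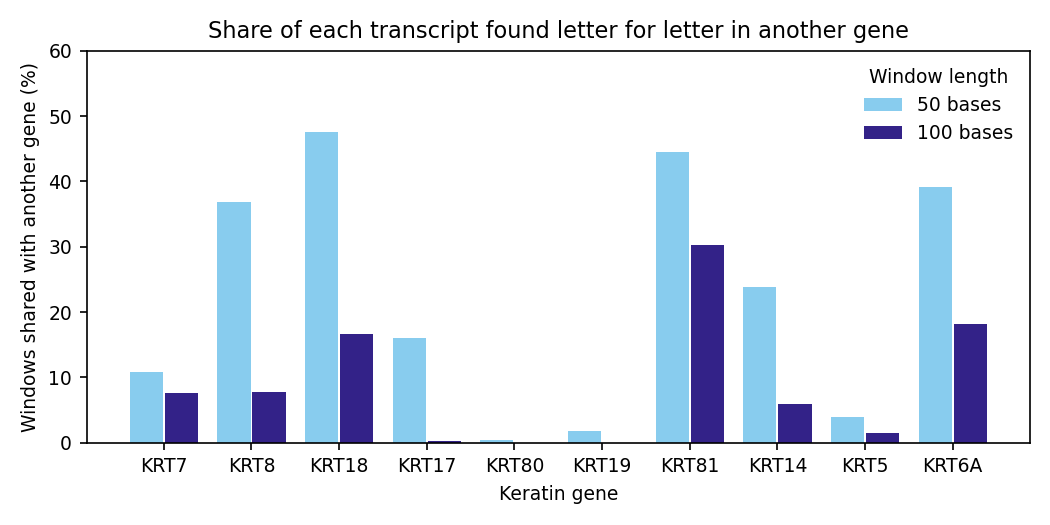
Share of the main transcript's windows, in percent, found in the transcripts of another gene on either strand, for each keratin gene, with bars for windows of 50 and of 100 bases. KRT18 (47.6%) and KRT81 (44.6%) share most at 50 bases and KRT80 (0.420%) least.

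KRT8 and KRT18 have many processed pseudogenes, copies without introns scattered over the genome, and few of their reads were assigned there. Of 51 KRT8 pseudogene rows 18 had a read, and together they held 0.726% to 0.932% as many reads as KRT8. Of 68 KRT18 pseudogene rows 14 had a read, with 0.117% to 0.311% as many reads as KRT18, and of 8 KRT17 pseudogene rows 3 had a read, with at most 0.0193%. KRT8P12 stood at 3.53 FPKM in WT and 2.93 FPKM in sgPARP1 (log2 fold change −0.22, limma adjusted p = 0.318), KRT8P3 at 1.82 and 1.52 FPKM, and KRT8P33 at 1.77 and 1.79 FPKM. The antisense gene KRT7-AS, which overlaps KRT7 by 2401 bases, stood at 5.80 FPKM in both groups.

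Other keratins added little, apart from KRT10. Of 45 further keratin genes, 33 were listed at 0, and 2 reached a mean of 0.5 FPKM, KRT86 and KRT10. KRT10, a type I keratin known from the upper epidermis, stood at 24.9 FPKM in WT and 25.1 FPKM in sgPARP1, with a log2 fold change of 0.01 (limma adjusted p = 0.936) that turned negative when WT 2, sgPARP1 2 or sgPARP1 3 was left out (range −0.0150 to 0.0578). KRT10-AS1, its antisense gene, stood at 3.996 and 3.40 FPKM. KRT6B and KRT6C, near copies of KRT6A, were listed at 0, and KRT16, a frequent partner of KRT6A, stood at 0.479 and 0.281 FPKM, below the filter. Outside the members 7 rows of this family were tested. Limma called 0 of them, 0 had an unadjusted p under 0.05, and voom called 0. Over all tested genes these shares were 7.96%, 24.4% and 11.9%.

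Among the proteins that tie keratin filaments to the cell surface, 15 of 21 genes were tested. Of these 5 were called lower and 1 higher, beside 4.44% and 3.52% of all tested genes. Their median log2 fold change was −0.09, beside 0.00292 over all tested genes. LAMB3, a chain of the anchoring laminin, fell from 6.96 to 3.15 FPKM (log2 fold change −0.93, limma adjusted p = 0.0036), ITGB4, an integrin chain of the hemidesmosome, from 4.26 to 2.68 FPKM (−0.51, limma adjusted p = 0.0038), and its partner ITGA6 from 4.73 to 3.48 FPKM (−0.36, limma adjusted p = 0.0371). DSP, desmoplakin, which joins keratin to desmosomes, fell from 27.1 to 21.1 FPKM (−0.35, limma adjusted p = 0.0355). The only gene that rose was PKP2, a plakophilin of desmosomes, from 5.83 to 7.52 FPKM (0.32, limma adjusted p = 0.0309), named after its value was seen. Other tested genes of the hemidesmosome and its laminin were not called: LAMA3, at a log2 fold change of 0.15, PLEC, at 0.000388, CD151, at −0.00594, and DST, at −0.19, named after their values were seen. With 1 library left out, LAMB3 and ITGB4 were called every time. The calls of ITGA6 and DSP were lost without any 1 of the libraries except sgPARP1 2 (adjusted p up to 0.114 and 0.117), and that of PKP2 without any 1 of the 6 (0.0557 to 0.102).

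Of the genes whose products bind, modify, cleave or crosslink keratins, 15 of 16 were tested and 0 were called, with a median of 0.01. At an unadjusted p under 0.05 there were 2, and voom called 2 (1 higher and 1 lower). Over all tested genes 7.96% were called, 24.4% had an unadjusted p under 0.05 and 11.9% were called by voom. SFN and YWHAZ, both 14-3-3 proteins that bind phosphorylated keratin, were the most abundant: SFN stood at 241 FPKM in WT and 219 FPKM in sgPARP1 (log2 fold change −0.14), and YWHAZ at 107 and 120 FPKM (0.16, limma adjusted p = 0.0927). Of 17 other intermediate filament genes 9 were tested, with 1 higher and 0 lower, beside 3.52% and 4.44% of all tested genes. At an unadjusted p under 0.05 there were 4 higher and 1 lower, beside 12.1% and 12.3%. Voom called 1 higher and 1 lower, beside 4.91% and 6.95%. SYNM, synemin, which joins other filaments, rose from 10.6 to 12.7 FPKM (0.24, limma adjusted p = 0.0286), a call lost without any 1 of the libraries except sgPARP1 3 (adjusted p up to 0.107). VIM, the filament of mesenchymal cells, stood at 90.0 FPKM in WT and 96.2 FPKM in sgPARP1 and was not called. Vimentin RNA was thus present beside the keratins, at a lower level than each of the 4 leading genes.

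Of 36 genes for transcription factors and splicing regulators linked with keratin or epithelial genes, 25 were tested. Of these 4 were called lower and 0 higher (4.44% and 3.52% of all tested genes). Their median was −0.06, beside 0.00292 over all tested genes. At an unadjusted p under 0.05 there were 9 lower and 0 higher (12.3% and 12.1% of all tested genes). Voom called 7 lower and 0 higher (6.95% and 4.91% of all tested genes). FOSL1, a member of the AP-1 family, fell from 10.5 to 6.72 FPKM (log2 fold change −0.57, limma adjusted p = 0.0031), and was called with any 1 library left out. JUNB, also of AP-1, fell from 70.1 to 55.8 FPKM (−0.33, limma adjusted p = 0.0274), SNAI1, a repressor of epithelial genes, from 2.25 to 1.39 FPKM (−0.44, limma adjusted p = 0.0184), and CEBPA, a factor of hepatocytes and other differentiated cells, from 2.75 to 1.70 FPKM (−0.47, limma adjusted p = 0.0371). The calls of these 3 did not hold when single libraries were left out: JUNB without any except sgPARP1 3, SNAI1 without WT 1, WT 2, WT 3 or sgPARP1 1, and CEBPA without any except WT 3, with adjusted p up to 0.0990, 0.0676 and 0.117. JUN and FOS, also of AP-1, were not called, at log2 fold changes of 0.00453 and −0.0263. Neither were SNAI2 (−0.17), ZEB1 (−0.13) and ZEB2 (0.03), and all 5 were named after their values were seen.

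Other markers that moved between the groups are given beside the keratins, and their part in the keratin differences was not tested. Of 15 genes of simple and bile duct epithelium 7 were tested, with 1 lower and 1 higher, beside 4.44% and 3.52% of all tested genes. MUC1, a mucin of the apical surface, fell from 7.94 to 5.20 FPKM (−0.52, limma adjusted p = 0.0159), a call lost without WT 3 or sgPARP1 1 (adjusted p up to 0.0638). The defining genes EPCAM (0.456 and 0.575 FPKM), CDH1 (0.0935 and 0.153 FPKM) and SOX9 (0.159 and 0.181 FPKM) were low, and SPP1 was listed at 0. Of 8 basal and squamous markers 2 were tested, SFN and ITGB4; their sum was 232 to 261 FPKM in WT and 201 to 233 FPKM in sgPARP1, nearly all of it SFN, with TP63 at a mean of 0.0147 FPKM and DSG3 listed at 0. Of 9 mesenchymal markers 6 were tested, with 3 lower and 0 higher, beside 4.44% and 3.52% of all tested genes. At an unadjusted p under 0.05 there were 3 lower and 2 higher, beside 12.3% and 12.1%. Voom called 3 lower and 1 higher, beside 6.95% and 4.91%. PDGFRB and VIM were above every WT library in every sgPARP1 library without being called. PDGFRB rose from 2.67 to 3.43 FPKM (0.28, limma adjusted p = 0.111), named after its value was seen. LUM, the matrix proteoglycan lumican, fell from 9.15 to 1.04 FPKM (log2 fold change −2.32, limma adjusted p = 0.000118), and DCN, decorin, from 1.07 to 0.296 FPKM (−0.67, limma adjusted p = 0.00877). CDH2, N-cadherin, fell from 7.36 to 5.999 FPKM (−0.26, limma adjusted p = 0.0263), a call lost without any 1 of the 6 libraries (adjusted p of 0.0551 to 0.0997). The summed mesenchymal markers, mostly VIM, came to 124.2 to 127.7 FPKM in WT and 121.8 to 124.4 FPKM in sgPARP1. Abundant keratins therefore stood beside low EPCAM and CDH1 in all 6 libraries.

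The tested genes nearest to the keratins were looked at in turn, the 2 nearest outside the family on each side, which gave 10 distinct genes. Of these 2 were lower, 0 higher and 8 not called, beside 4.44% lower and 3.52% higher among all tested genes. TNS4, a tensin of focal adhesions beside the type I genes on chromosome 17, had a log2 fold change of −0.95 (limma adjusted p = 0.000118). NR4A1, a nuclear receptor on the low-coordinate side of the type II genes on chromosome 12, had −0.47 (limma adjusted p = 0.0131), lost without sgPARP1 1 (adjusted p = 0.0592). EIF1 and JUP, on the other side of the type I genes, had 0.04 and −0.06, and EIF4B and TNS2-AS1, beyond KRT18, 0.07 and 0.06. ATG101, beside NR4A1, had −0.04, with a sign that turned without WT 3 or sgPARP1 2.

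By the Euclidean distance between mean-centred log2(FPKM + 1) values over the 6 libraries, among 10429 protein-coding tested genes, the genes most like KRT8 were ARHGEF2 (distance 0.0406), LRP10 (0.0418) and FPGS (0.0437). Those most like KRT18 were PPP1R13L (0.0253), SLC25A39 (0.0262) and LGALS3BP (0.0391). The 2 partners lay at a distance of 0.107 from each other, and KRT18 ranked 97 among the genes nearest to KRT8. ARHGEF2, LRP10 and FPGS stood at 9.20, 22.5 and 37.8 FPKM in WT and at 7.38, 18.5 and 31.4 FPKM in sgPARP1.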

How the data were processed

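The authors deposited gene-level FPKM of the 6 libraries. Per the labels' protocols, mRNA libraries were prepared from total RNA. The submitters' processing notes list 3 builds, hg38, mm10 and GRCm38. The sources used here give no aligner, counting tool, version or use of strand. The IDs of 10 of 10 members matched GENCODE 29 by chromosome and strand, so coordinates are hg38. FPKM times gene length came in whole steps: 100% of values up to 200 reads were whole reads to within 0.02, from which read numbers were taken. Genes whose mean reached 0.5 FPKM were tested on log2(FPKM + 1) with limma 3.58.1 (trend; R 4.3.3), 3 WT against 3 sgPARP1, with Benjamini-Hochberg adjustment at 0.05. The SE is limma's moderated one. The 95% intervals come from that SE and so from the spread between libraries. The floor of 3 reads covers counting error only. Alternatives were other pseudocounts, filters and scalings, voom, a replicate block and leaving out each library. Ratios and levels were also recalculated with main transcript lengths, where the main transcript is the principal one with the longest coding part. Members, lists and tests were chosen with earlier results of these data known. The genes named are all members, other keratin rows from 0.5 FPKM, up to 4 called genes of each list with the largest change or its 2 most abundant, the nearest neighbours, and the genes most like KRT8 and KRT18; others were named after their values were seen. Some results that these rules take are not reported here.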

Additional observations from a re-analysis of the deposited data

How the results depend on the processing

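Over all genes, 1048 were called. Testing every gene above 0 in a library gave 587, and the number was 550 with the replicate block, 412 to 652 with 1 library left out, and 1561 with voom on recovered reads. Of the keratins 2 were called as reported, 0 with no filter, 1 with a mean of at least 5 FPKM (which leaves KRT81 out), 4 with voom, 1 with the replicate block and 0 to 2 with 1 library left out. With no filter KRT8 was at −0.27 and KRT81 at −0.93, neither called. With the replicate block KRT8 was at −0.27 with an adjusted p of 0.0576 and KRT81 at −0.93 with 0.0297. The numbers did not pair the libraries: the deviations of same-numbered libraries correlated at 0.0408, 0.0813 and −0.0262. With 1 library left out, the log2 fold change ranged from −0.30 to −0.23 for KRT8, −1.09 to −0.80 for KRT81, −0.22 to −0.14 for KRT18, 0.19 to 0.31 for KRT17, −0.17 to −0.09 for KRT7, −0.27 to −0.10 for KRT19 and 0.11 to 0.18 for KRT80. With voom KRT17 (0.23) and KRT18 (−0.20) passed. Over its alternatives the adjusted p of KRT8 ran from 0.000786 to 0.0849. No member changed direction under any of these alternatives. With main transcript lengths the ratio of type II to type I was 1.80 in WT and 1.57 in sgPARP1, and KRT8 over KRT18 1.73 and 1.64. Of 41 other genes followed, 22 were called, 7 of them under every alternative (LAMB3, ITGB4, LUM, DCN, FOSL1, PARP1 and TNS4), and 6 uncalled ones changed sign with 1 library left out: KRT10 (−0.0150 to 0.0578), KRT8P33 (−0.0196 to 0.0238), PI3 (−0.19 to 0.29), CNFN (−0.44 to 0.0172), KRT7-AS (−0.0846 to 0.0940) and ATG101 (−0.12 to 0.00284). The cause of these changes was not tested. TPM and median-of-ratios scaling moved the median log2 fold change of all genes by 0.00170 and 0.00343. Depth limits KRT19, KRT81 and the 3 keratins with at most 7 reads.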

Other observations

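KRT4, a type II keratin of the lining of the mouth and oesophagus, lay just under the filter and was chosen after its values were seen. It stood at 0.221, 0.0603 and 0.0923 FPKM in WT, from 11, 3 and 4 reads, and at 1.02, 0.632 and 0.928 FPKM in sgPARP1, from 46, 28 and 46 reads. Every sgPARP1 library was above every WT library, with means of 0.125 ± 0.0853 and 0.860 ± 0.204 FPKM (SD, n = 3 each). Over the 6 libraries its mean was 0.493 FPKM. In the fit of all 28336 genes above 0 in a library, its log2 fold change was 0.72 (SE 0.110, limma adjusted p = 0.0405), a value given for that setting alone.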
